A study of Mus musculus with 16 samples.

Results

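Neutrophils sorted from the lungs of wild type (WT) mice were compared between the baseline (0h) and 12 hours after cecal ligation and puncture (CLP), an abdominal operation that releases gut bacteria and causes polymicrobial sepsis. The series holds RNA sequencing of neutrophils from blood and lung of WT and aD KO mice, which lack the αD chain of the integrin αDβ2, at the same 2 times. Of its 24 count files, 6 are described here, namely the 3 of WT lung at 0h and the 3 of WT lung at 12h, chosen by their labels for genotype, tissue and treatment. The 0h mice had no treatment, no sham operation stands among the groups, and the mice were male and 8 to 12 weeks old. Cells of both groups had been sorted as positive for Ly6G, CD11b and CD45, so the gate itself set which cells could enter. The study describes this sequencing as done in triplicate, and the number of animals behind each library was not given in the sources used here.

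Neutrophils are short-lived phagocytes that leave the bone marrow with their granule proteins largely already made, and azurophil, specific and gelatinase granules are filled in that order as the cell matures. In sepsis the marrow releases neutrophils in large numbers, some of them less mature, and many are held in the capillaries of the lung. Once there, contact with microbial products and cytokines induces genes through NF-kB, AP-1 and STAT factors, among them those of chemokines, cytokines and the inhibitors that end the signal.

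The 6 count files stand under 4 samples in the labels. Sample 1 of each group has 2 files, named libraries 1a and 1b in this text, and sample 2 has the single library 2. In a chi-square test of their counts, 1a and 1b differed far beyond sampling noise (statistic over degrees of freedom 78.5 at 0h and 328.5 at 12h, where sampling alone gives about 1), and each file was taken as a library (n = 3 per group). This does not show that 1a and 1b are separate animals, and the tests measure the spread between libraries, which may be technical in part. With the files of sample 1 summed (n = 2 per group) 2337 genes were called, against 1340 with each file on its own. Total counts were 27402811, 13210468 and 24279166 at 0h and 25465567, 10628463 and 28488406 at 12h, in the order 1a, 1b and 2, which all values in this order follow. Libraries 1b were the shallowest of their groups, yet counts fell on 38844 genes at 0h and 35731 at 12h, against 21028 to 24913 in the other 4 libraries. On the first principal component, which held 57.8% of the variance, the 0h libraries lay between -61.8 and -55.8, 12h libraries 1a and 2 at 94.0 and 75.7, and 12h library 1b at 3.94. The second component held 26.6% and set libraries 1b of both times apart. They lay at 32.7 (0h) and 81.1 (12h), and the other 4 libraries between -43.1 and -17.9. The rank correlation of 12h library 1b with 0h library 1b was 0.913, above its correlations with 12h libraries 1a and 2 (0.864 and 0.872). Most genes named are therefore given with the value of each library.

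At 12h, 778 genes were higher and 562 lower than at 0h, of 14859 genes tested. A call required an adjusted p under 0.05 in edgeR's quasi-likelihood test and a log2 fold change above 1 or below -1, so that 5.24% of the genes tested were called higher and 3.78% lower. An unadjusted p under 0.05 was found for 3947 genes, and the median log2 fold change of all genes tested was 0.03. Among the 1340 genes called, the 3 libraries of a group did not overlap with those of the other in 1326, against 31.7% of all genes tested. DESeq2 called 1295 of these genes too, of 2384 in all. The count rested on single libraries. Leaving out 12h library 1b gave 3941 called genes, leaving out 0h library 1b gave 769, leaving out 12h library 2 gave 27, and leaving out 0h library 1a, 0h library 2 or 12h library 1a gave 0 in each case by edgeR, with an unadjusted p under 0.05 for 2171, 2180 and 2515 genes. All counts of called genes that follow share this dependence. The gene lists below and their members were chosen with earlier results of these data known. Their shares of called genes may partly reflect that choice, and they describe the lists without testing them. Values are CPM, counts scaled to a library of 1000000 with TMM factors, and fold changes are on the log2 scale as 12h minus 0h with their standard error (SE).

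The largest rises were those of secreted defence proteins, cytokines and a few enzymes and receptors. Saa3 (chr7:46711998-46715700), serum amyloid A3, an acute phase protein, was at 0.439, 0.353 and 1.104 CPM at 0h and 1237, 201 and 382 CPM at 12h (log2 fold change 9.88 ± 1.02, adjusted p = 0.0043). Orm1 (chr4:63344560-63348163), the acute phase protein alpha-1-acid glycoprotein, was at 1.18, 0.252 and 1.58 CPM at 0h and 1396, 124 and 685 CPM at 12h (log2 fold change 9.48 ± 1.203, adjusted p = 0.0063). Both were nearly silent in every 0h library and clearly expressed in every 12h library. Ikbke (chr1:131254343-131279606), a kinase of the NF-kB and interferon pathways, was at 6.85, 3.38 and 7.47 CPM at 0h and 2111, 369.7 and 1383 CPM at 12h (log2 fold change 7.77 ± 0.84, adjusted p = 0.0049). Lipg, endothelial lipase, was at 0.878, 2.22 and 1.803 CPM at 0h and 597, 308 and 260.3 CPM at 12h (log2 fold change 7.90 ± 0.63, adjusted p = 0.0038). Ggt1 (chr10:75561604-75586200), which cleaves extracellular glutathione, was at 2.23, 1.16 and 1.07 CPM at 0h and 118, 539 and 92.5 CPM at 12h (log2 fold change 7.38 ± 0.90, adjusted p = 0.0054). Library 1b at 12h was the lowest of its group for Saa3, Orm1 and Ikbke, in the middle for Lipg and the highest for Ggt1.

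In other genes among the 12 largest rises, 12h library 1b lay much closer to the 0h libraries. Csf3 (chr11:98701263-98703629), the granulocyte growth factor G-CSF, was at 0.101, 0.454 and 0.405 CPM at 0h and 351, 2.18 and 133 CPM at 12h (log2 fold change 8.998 ± 1.71, adjusted p = 0.021). Il10 (chr1:131019845-131024974), an anti-inflammatory cytokine, was at 0.169, 0.454 and 0.478 CPM at 0h and 225, 3.79 and 68.6 CPM at 12h (log2 fold change 8.08 ± 1.44, adjusted p = 0.017). Adora2a (chr10:75316943-75334788), a receptor for adenosine, was at 0.304, 0.202 and 0.147 CPM at 0h and 129, 1.896 and 58.7 CPM at 12h (log2 fold change 8.13 ± 1.43, adjusted p = 0.017). In all 3 genes 12h library 1b was far below 12h libraries 1a and 2, although still above every 0h library. Cxcl3, Mfsd7a and Pdzk1ip1 complete the group with fitted log2 fold changes of 7.49, 7.43 and 7.38. Gpr15, a chemoattractant receptor, had no count in any 0h library and 61 counts over the 3 libraries at 12h (0, 0 and 0 CPM at 0h and 0.773, 2.56 and 0.936 CPM at 12h), which is at least 31.1-fold higher when 3 counts are put in place of the 0 at 0h.

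The largest falls included surface receptors and B cell genes. Cd101 (chr3:100993529-101029556), an immunoglobulin family receptor used as a marker of mature neutrophils, was at 644, 546 and 466 CPM at 0h and 6.07, 20.4 and 6.597 CPM at 12h (log2 fold change -5.65 ± 0.63, adjusted p = 0.0049). Eef2k (chr7:120842831-120907450), the kinase that slows translation elongation, was at 79.6, 88.3 and 70.4 CPM at 0h and 0.497, 5.69 and 0.468 CPM at 12h (log2 fold change -5.25 ± 0.97, adjusted p = 0.019). Ctc1 (chr11:69015911-69036473), a telomere maintenance protein, was at 168, 93.5 and 165 CPM at 0h and 1.27, 9.57 and 2.39 CPM at 12h (log2 fold change -5.04 ± 0.78, adjusted p = 0.012). In all 3 the groups stood far apart, and 12h library 1b kept the highest value of its group. Amz1 (chr5:140724127-140761439), a metallopeptidase, had the lowest p of all genes tested and fell about equally in every library, at 41.7, 53.9 and 38.5 CPM at 0h and 1.104, 1.61 and 1.97 CPM at 12h (log2 fold change -4.83 ± 0.37, adjusted p = 0.0038). Abcg3, a transporter, was at 73.3, 38.8 and 71.8 CPM at 0h and 0.386, 3.89 and 0.1404 CPM at 12h (log2 fold change -5.50 ± 1.07, adjusted p = 0.022). Cd300c, a myeloid receptor, was at 8.91, 3.99 and 10.05 CPM at 0h and 0.441, 0.284 and 0.0936 CPM at 12h (log2 fold change -4.80 ± 0.72, adjusted p = 0.01). Ly6d, a gene of B cells, was at 4.46, 4.94 and 3.79 CPM at 0h and 0, 0.0948 and 0.328 CPM at 12h (log2 fold change -4.83 ± 0.98, adjusted p = 0.026). Among the others, Prss2 had 4 counts and Stac, Gm9903 and Cd300ld3 had 3, 1 and 1 counts over the 3 libraries at 12h, so their fitted values rest on almost no reads. By counts, 0h was 29.4 times 12h for Stac (95% exact interval 9.85 to 144), 52.3 times for Gm9903 (9.11 to 2089) and 47.7 times for Cd300ld3 (8.29 to 1909), intervals that cover counting error only.

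**Figure D1:**
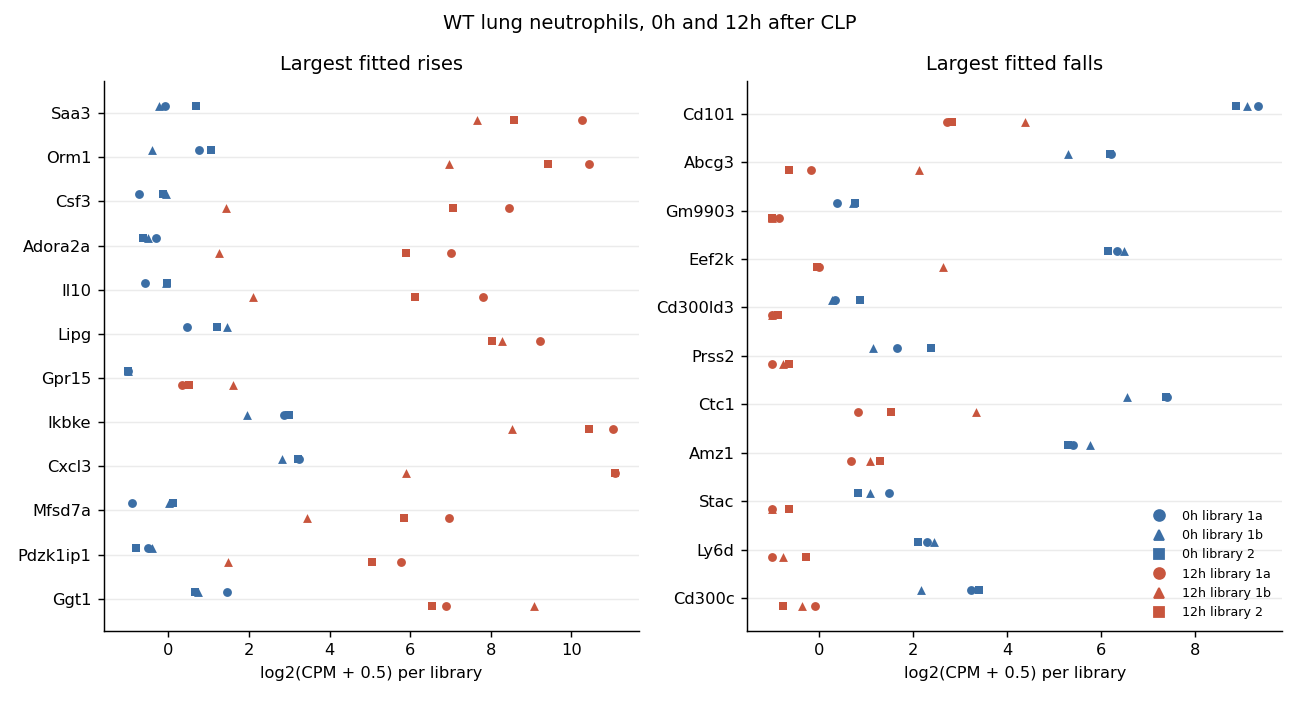
Each row is a gene among the 12 largest fitted rises (left, all shown) and the 12 largest fitted falls (right, 11 shown), and the x axis is log2(CPM + 0.5). Blue symbols are the 3 libraries at 0h and red symbols those at 12h, with circles for library 1a, triangles for 1b and squares for 2. The groups do not overlap, as the rule for naming these genes required, and for Csf3, Il10 and Adora2a the red triangle lies near the blue symbols.

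Most specific granule genes rose at 12h. Of 17 specific granule genes tested, 11 were called higher and 0 lower, against 5.24% and 3.78% of all genes, and the median log2 fold change of the list was 2.35. Lcn2 (chr2:32384633-32388252), lipocalin 2, which binds bacterial siderophores, was at 704, 350.2 and 409 CPM at 0h and 25859.5, 16738 and 31356 CPM at 12h (log2 fold change 5.66 ± 0.63, adjusted p = 0.0049). Ngp, neutrophilic granule protein, was at 583, 42.3 and 529 CPM at 0h and 29344, 13939.5 and 23068 CPM at 12h (log2 fold change 5.85 ± 1.05, adjusted p = 0.018). Ltf, lactoferrin, was at 348, 24.6 and 314 CPM at 0h and 7654, 2732 and 7260.1 CPM at 12h (log2 fold change 4.68 ± 1.00, adjusted p = 0.029). In these 3 genes every 12h library lay several times above the highest 0h library. Camp, the precursor of the cathelicidin peptide, was at 83.95, 5.298 and 83.4 CPM at 0h and 1779, 674 and 1572 CPM at 12h (log2 fold change 4.54 ± 0.99, adjusted p = 0.03). Chil3, a chitinase-like protein, was at 209, 69.02 and 139 CPM at 0h and 5677, 4464 and 7209 CPM at 12h (log2 fold change 5.38 ± 0.61, adjusted p = 0.005). Olfm4, olfactomedin 4, carried by a subset of neutrophils, was at 11.8, 4.34 and 10.7 CPM at 0h and 288, 178 and 255 CPM at 12h (log2 fold change 4.74 ± 0.50, adjusted p = 0.0045). For Ngp, Ltf and Camp the 0h library 1b was many times lower than the other 0h libraries, so that the rise within libraries 1b was the larger one. The matrix metalloproteinase gene Mmp8, neutrophil collagenase, was at 1462, 634 and 1544 CPM at 0h and 3527, 7374 and 4659 CPM at 12h (log2 fold change 2.10 ± 0.54, adjusted p = 0.048), highest in 12h library 1b. Hp, haptoglobin, was at 2668, 1199 and 2407 CPM at 0h and 5025, 4329 and 4779 CPM at 12h and was not called (adjusted p = 0.15), although its libraries did not overlap.

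The azurophil granule genes tested gave no common direction. Of 12 listed genes only 6 were tested, which leaves much of the list without a result. Of the 6, Ctsc and Serpinb1a were called higher and 0 lower (33.3% and 0%, against 5.24% and 3.78% of all genes), and the median log2 fold change was -0.04. Ctsc, cathepsin C, which activates the serine proteases of these granules, was at 17.6, 16.3 and 19.1 CPM at 0h and 223, 257 and 222 CPM at 12h (log2 fold change 3.73 ± 0.32, adjusted p = 0.0038). Serpinb1a, an inhibitor of neutrophil proteases, was at 20.02, 8.63 and 22.5 CPM at 0h and 252, 326 and 416 CPM at 12h (log2 fold change 4.28 ± 0.49, adjusted p = 0.005). Both were raised about equally in the 3 libraries at 12h. Lyz2, lysozyme, was not called (adjusted p = 0.31) and split the 12h group, at 4192, 2706 and 6399 CPM at 0h and 309, 3629.8 and 580.3 CPM at 12h. Library 1b at 12h lay within the 0h range for Lyz2, while 12h libraries 1a and 2 lay below every 0h library. Prtn3, proteinase 3, was at 3.65, 0.656 and 0.515 CPM at 0h and 0.221, 8.63 and 1.59 CPM at 12h, Prss57 at 12.4, 4.54 and 2.91 CPM at 0h and 0.386, 2.84 and 0.328 CPM at 12h and Nkg7 at 0.979, 0.807 and 1.03 CPM at 0h and 0.386, 0.379 and 0.468 CPM at 12h, and none of them was called.

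Among gelatinase granule and secretory vesicle proteins, 3 of 14 were called higher and 1 lower (21.4% and 7.14%, against 5.24% and 3.78% of all genes). Fpr2, a receptor for formylated peptides, was at 133, 66.96 and 105 CPM at 0h and 770.2, 561 and 661 CPM at 12h (log2 fold change 2.71 ± 0.41, adjusted p = 0.01). Mmp25, a membrane-bound metalloproteinase, was at 93.1, 43.4 and 47.8 CPM at 0h and 151, 534 and 208 CPM at 12h (log2 fold change 2.27 ± 0.57, adjusted p = 0.045). Cd55, which protects cells from complement, was at 7.87, 9.03 and 6.11 CPM at 0h and 33.1, 67.3 and 26.997 CPM at 12h (log2 fold change 2.47 ± 0.42, adjusted p = 0.015). In these 3 genes every 12h library lay above every 0h library. Vnn3, a pantetheinase, fell in every library, at 176, 94.9 and 142 CPM at 0h and 6.79, 6.64 and 12.4 CPM at 12h (log2 fold change -3.99 ± 0.43, adjusted p = 0.0048). Mmp9, gelatinase B, was at 4947, 4084 and 2721 CPM at 0h and 2023, 9622 and 2991 CPM at 12h and was not called (adjusted p = 0.81), with only 12h library 1b above the 0h range. Fpr1 (2.44, adjusted p = 0.0504) and Anxa1 (1.77, adjusted p = 0.052) narrowly missed the threshold.

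Of 20 genes that mark neutrophils 7 were called higher and 1 lower (35% and 5%, against 5.24% and 3.78% of all genes). The summed CPM of the 20 neutrophil identity genes was 60512, 43043 and 56076 at 0h and 123690.0, 197572 and 126385 at 12h. S100a8, a subunit of calprotectin, the main cytosolic protein of neutrophils, was at 12079, 10936 and 13402 CPM at 0h and 22806, 79219.9 and 26854 CPM at 12h, and its difference did not pass the test (log2 fold change 1.82 ± 0.64, adjusted p = 0.11). S100a9, the other subunit, was at 11992, 11048 and 11486 CPM at 0h and 24176, 57913 and 27550.2 CPM at 12h (log2 fold change 1.67 ± 0.55, adjusted p = 0.096). For both genes the groups did not overlap, and 12h library 1b was well above the other 12h libraries. Ly6g, the gene of the antigen used to sort the cells, was at 48.6, 25.03 and 23.4 CPM at 0h and 84.9, 553 and 221 CPM at 12h (log2 fold change 3.15 ± 0.70, adjusted p = 0.031). Cd177, a surface protein stored in specific granules, was at 238, 107 and 201 CPM at 0h and 2604, 4409.9 and 2428 CPM at 12h (log2 fold change 4.11 ± 0.53, adjusted p = 0.0071). Csf3r, the receptor for G-CSF, moved the other way and fell in every library, at 10205, 6721 and 9899 CPM at 0h and 2875, 1820.1 and 2946 CPM at 12h (log2 fold change -1.81 ± 0.46, adjusted p = 0.048). Il1r2, the decoy receptor for interleukin 1, was at 830.3, 407 and 1098 CPM at 0h and 10766, 1586 and 10923 CPM at 12h (log2 fold change 3.32 ± 0.80, adjusted p = 0.041), with 12h library 1b lower than the other two of its group but above the 0h libraries.

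The median log2 fold change of acute phase and secreted defence factors, a list chosen like the others with earlier results of these data known, was 2.90. Of 27 tested members 12 were called higher and 0 lower (44.4% and 0%, against 5.24% and 3.78% of all genes), with Lcn2, Saa3 and Orm1 above among them. Prok2, prokineticin 2, a secreted peptide of myeloid cells, was at 1.92, 2.62 and 4.09 CPM at 0h and 287, 478 and 92.7 CPM at 12h (log2 fold change 6.63 ± 0.74, adjusted p = 0.0049). Stfa3, a stefin that inhibits cathepsins, was at 0.203, 0.202 and 0.1104 CPM at 0h and 6.898, 73.7 and 4.68 CPM at 12h (log2 fold change 7.33 ± 1.28, adjusted p = 0.017), a level that leaves out reads shared with near-identical stefin copies. Cd14, the coreceptor for lipopolysaccharide, was at 224, 120.2 and 468 CPM at 0h and 11554, 1484 and 12442 CPM at 12h (log2 fold change 4.97 ± 0.96, adjusted p = 0.022). Prok2 and Stfa3 were highest in 12h library 1b, while for Cd14 that library was far below the other two at 12h. Thbs1, thrombospondin 1, was called (log2 fold change 5.48 ± 1.40, adjusted p = 0.048) although its libraries overlapped, with 53.9, 98.3 and 178 CPM at 0h and 10277, 106 and 4328 CPM at 12h. Its rise belonged to 12h libraries 1a and 2, and 12h library 1b lay within the 0h range.

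**Figure D2:**
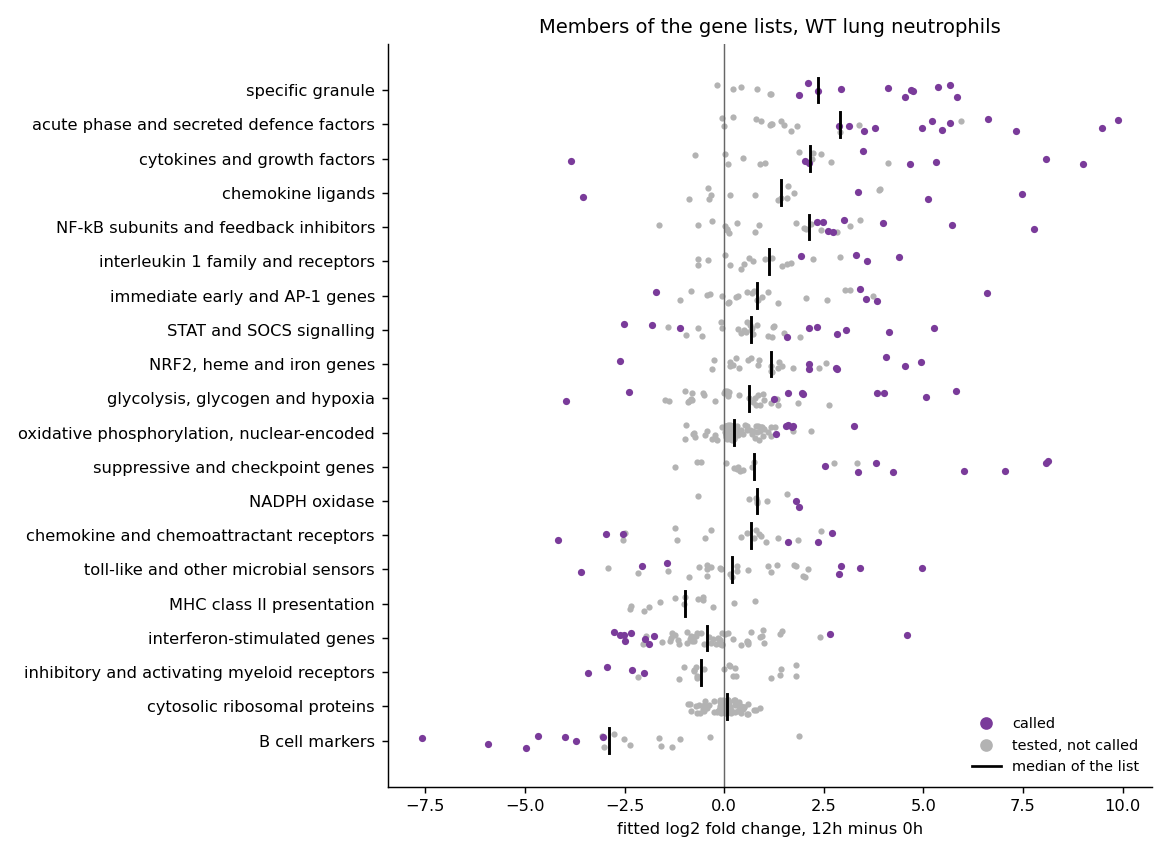
Each row is a gene list and each point a tested member, with the fitted log2 fold change (12h minus 0h) on the x axis. Purple points were called, grey points were tested and not called, and the black bar is the median of the list. The specific granule, acute phase, cytokine and NF-kB lists have medians over 2, the B cell markers have a median of -2.89, and the ribosomal proteins lie around 0 with no call.

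Some chemokine ligand genes rose. Of 17 ligands tested, 3 were called higher and 1 lower, against 5.24% and 3.78% of all genes, with a median log2 fold change of 1.42. All 3 that rose, Cxcl1, Cxcl2 and Cxcl3, are ligands of CXCR2 and lie close to each other on chromosome 5. The promoter sequences below, from RefSeq on GRCm38.p6, run from 250 bases before to 50 bases after the transcription start on the plus strand, 5′ to 3′, and are shown because all 3 hold the letters GGGANTTTC, written for NF-kB, which capitals mark. They are at chr5:90890995-90891294, chr5:90903649-90903948 and chr5:90785851-90786150.
Cxcl1: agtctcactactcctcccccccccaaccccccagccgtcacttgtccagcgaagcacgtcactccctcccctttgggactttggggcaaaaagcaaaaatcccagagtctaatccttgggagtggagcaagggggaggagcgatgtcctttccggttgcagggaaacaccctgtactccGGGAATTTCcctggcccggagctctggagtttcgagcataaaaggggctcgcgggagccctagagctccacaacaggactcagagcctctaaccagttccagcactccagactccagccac
Cxcl2: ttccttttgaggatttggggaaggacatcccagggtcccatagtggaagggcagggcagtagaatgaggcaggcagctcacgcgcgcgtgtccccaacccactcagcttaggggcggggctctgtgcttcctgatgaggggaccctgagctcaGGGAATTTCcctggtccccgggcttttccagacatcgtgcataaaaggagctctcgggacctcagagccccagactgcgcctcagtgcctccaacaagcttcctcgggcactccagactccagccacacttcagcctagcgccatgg
Cxcl3: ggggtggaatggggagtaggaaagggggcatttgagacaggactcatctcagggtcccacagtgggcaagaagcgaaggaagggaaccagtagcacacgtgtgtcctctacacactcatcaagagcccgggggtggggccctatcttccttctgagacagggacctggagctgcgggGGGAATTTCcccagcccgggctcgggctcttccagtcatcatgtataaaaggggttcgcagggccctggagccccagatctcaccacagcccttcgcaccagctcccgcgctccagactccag
The same 9 bases, GGGAATTTC, begin 71 bases before the start in Cxcl1, 97 before it in Cxcl2 and 73 before it in Cxcl3. On either strand these letters were found in 4 of 14 chemokine ligand genes with a promoter in the table, and in 1.29% of all 27025 genes there. A match is a description of these windows, and nothing bound to them was measured.

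Cxcl1 was at 2.77, 2.98 and 10.3 CPM at 0h and 228, 6.45 and 328 CPM at 12h (log2 fold change 5.13 ± 1.27, adjusted p = 0.043). Cxcl2 was at 1021, 1191 and 1463 CPM at 0h and 18609, 1961 and 17431 CPM at 12h (log2 fold change 3.37 ± 0.82, adjusted p = 0.042). Cxcl3 was at 8.91, 6.51 and 8.83 CPM at 0h and 2149.5, 59.4 and 2151 CPM at 12h (log2 fold change 7.49 ± 1.28, adjusted p = 0.016). For Cxcl1 the 12h library 1b lay within the 0h range, and for Cxcl2 and Cxcl3 it lay above the 0h libraries and far below the other two at 12h. Ccl3, which attracts monocytes and other leukocytes, was not called (adjusted p = 0.057) and had 192, 234 and 352 CPM at 0h and 6763, 212 and 4600.1 CPM at 12h. Only 12h libraries 1a and 2 were raised for Ccl3. Ccl6 moved the other way and fell in every library, at 7266, 3665 and 3736 CPM at 0h and 327, 562 and 372 CPM at 12h (log2 fold change -3.54 ± 0.52, adjusted p = 0.01). Ccrl2, a receptor-like protein that holds chemerin, was at 517, 1201 and 956 CPM at 0h and 4252, 318 and 4512 CPM at 12h and was not called (adjusted p = 0.23).

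Among cytokines and growth factors, 7 of 20 tested were called higher and 1 lower (35% and 5%, against 5.24% and 3.78% of all genes), with a median of 2.16. Beside Csf3 and Il10, the called members were Tnf, Il12a, Inhba, Il4ra and Ebi3. Tnf, tumor necrosis factor, was at 20.2, 21.9 and 39.9 CPM at 0h and 1083, 69.3 and 927 CPM at 12h (log2 fold change 4.66 ± 0.95, adjusted p = 0.026). Il12a, the p35 subunit shared by IL-12 and IL-35, was at 0.371, 1.11 and 1.07 CPM at 0h and 65.3, 2.46 and 33.8 CPM at 12h (log2 fold change 5.33 ± 1.09, adjusted p = 0.026). Inhba, a subunit of activin A, was at 2.57, 1.82 and 3.02 CPM at 0h and 40.8, 9.95 and 32.8 CPM at 12h (log2 fold change 3.49 ± 0.56, adjusted p = 0.013). Il4ra, the receptor chain for IL-4 and IL-13, was at 274, 271 and 269.8 CPM at 0h and 1668, 827 and 1069 CPM at 12h (log2 fold change 2.13 ± 0.41, adjusted p = 0.022). Il4ra was strongly raised in all 3 libraries at 12h, and the other 3 genes were several times lower in 12h library 1b than in 12h libraries 1a and 2. Il15, which maintains lymphocytes, fell in every library, at 139, 109.8 and 188 CPM at 0h and 6.73, 15.9 and 7.72 CPM at 12h (log2 fold change -3.85 ± 0.46, adjusted p = 0.0051). Osm, oncostatin M, was at 241, 423 and 350.1 CPM at 0h and 2606, 360.02 and 2504 CPM at 12h (adjusted p = 0.071), and Csf1 was at 213, 263 and 556 CPM at 0h and 625, 34.03 and 380.4 CPM at 12h (adjusted p = 0.997). Neither was called, and for both 12h library 1b was the lowest of the 12h libraries.

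In the interleukin 1 family the agonist Il1a rose, as did Irak3, Il1r2 and Il18r1. Of 20 tested members 4 were called higher and 0 lower (20% and 0%, against 5.24% and 3.78% of all genes). Il1a was at 4.08, 7.27 and 11.6 CPM at 0h and 228, 13.6 and 243 CPM at 12h (log2 fold change 4.398 ± 0.98, adjusted p = 0.032). Irak3, a kinase-like inhibitor of Toll-like receptor signalling, was at 102, 49.9 and 120.4 CPM at 0h and 1784, 407 and 1066 CPM at 12h (log2 fold change 3.58 ± 0.65, adjusted p = 0.018). Il18r1, a chain of the IL-18 receptor, was at 8.101, 5.601 and 8.46 CPM at 0h and 36.8, 25.97 and 21.7 CPM at 12h (log2 fold change 1.93 ± 0.34, adjusted p = 0.017). Irak3 and Il18r1 were raised in all 3 libraries. Il1b, the secreted agonist IL-1β, was at 6197, 6020.5 and 9302 CPM at 0h and 10927, 1703 and 15959.8 CPM at 12h and was not called (adjusted p = 0.78), with 12h library 1b below every 0h library and the other two 12h libraries above them. Il1rn, the receptor antagonist, was at 775, 404 and 953 CPM at 0h and 8607, 889 and 6361 CPM at 12h and missed the threshold (adjusted p = 0.062).

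Subunits and feedback inhibitors of NF-kB rose in part. Of 26 subunits and inhibitors tested, 8 were called higher and 0 lower (30.8% and 0%, against 5.24% and 3.78% of all genes), with a median of 2.12. Beside Ikbke, Traf1, an adaptor of TNF receptors, was at 10.2, 13.6 and 18.4 CPM at 0h and 1264, 43.5 and 899 CPM at 12h (log2 fold change 5.71 ± 1.11, adjusted p = 0.023). Tnip1, which limits NF-kB with A20, was at 32.7, 32.3 and 35.6 CPM at 0h and 839.5, 184 and 564 CPM at 12h (log2 fold change 3.98 ± 0.59, adjusted p = 0.01). Relb, a subunit of the alternative pathway, was at 22.6, 24.6 and 25.4 CPM at 0h and 368, 61.4 and 154 CPM at 12h (log2 fold change 3.01 ± 0.62, adjusted p = 0.026). In these genes every 12h library lay above the 0h libraries, and 12h library 1b was the lowest of its group. Nfkbia, the inhibitor IκBα, was at 695, 789 and 917 CPM at 0h and 7305, 982 and 8806 CPM at 12h and was not called (adjusted p = 0.056). Tnfaip3, the ubiquitin editing inhibitor A20, was at 117, 298 and 328 CPM at 0h and 5169.8, 155 and 2565 CPM at 12h (adjusted p = 0.084). Nfkbiz was at 361, 469 and 459.6 CPM at 0h and 3783, 406 and 2758 CPM at 12h (adjusted p = 0.077). The 3 genes that were not called were several times higher than at 0h in 12h libraries 1a and 2, with 12h library 1b close to or within the 0h range.

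Immediate early and AP-1 genes, which respond within minutes to many stimuli, gave 4 higher and 1 lower calls among 27 tested (14.8% and 3.7%, against 5.24% and 3.78% of all genes). Fosl1, which encodes the AP-1 subunit FRA-1, was at 1.22, 1.21 and 3.97 CPM at 0h and 370.2, 8.15 and 243 CPM at 12h (log2 fold change 6.59 ± 1.32, adjusted p = 0.024). Batf, an AP-1 factor of myeloid and lymphoid cells, was at 45.2, 26.9 and 53.7 CPM at 0h and 759, 51.3 and 665 CPM at 12h (log2 fold change 3.55 ± 0.88, adjusted p = 0.044). Ier3 was at 101.3, 138 and 108 CPM at 0h and 1869, 148 and 1662 CPM at 12h (log2 fold change 3.41 ± 0.84, adjusted p = 0.043). Bhlhe40, a repressor that also acts in the circadian clock, was at 20.6, 24.5 and 34.6 CPM at 0h and 553, 41.7 and 537 CPM at 12h (log2 fold change 3.83 ± 0.87, adjusted p = 0.033). For Batf the 12h library 1b lay within the 0h range. For Fosl1, Ier3 and Bhlhe40 it lay above that range and far below 12h libraries 1a and 2. Fosb fell in all 3 libraries, at 38.7, 40.9 and 56.1 CPM at 0h and 10.4, 9.67 and 20.9 CPM at 12h (log2 fold change -1.72 ± 0.39, adjusted p = 0.032). The members with the highest CPM, Fos (-0.83), Junb (0.10), Zfp36 (0.58) and Btg2 (-0.35) were not called, and 12h library 1b was below every 0h library in each of them. Among phosphatases and inhibitors of MAPK signalling, 2 of 12 were called higher and 1 lower (16.7% and 8.33%, against 5.24% and 3.78% of all genes). Dusp16 was at 20.8, 14.2 and 26.1 CPM at 0h and 871, 90.3 and 714 CPM at 12h (log2 fold change 4.78 ± 0.83, adjusted p = 0.016). Spred1 was at 0.844, 1.67 and 0.405 CPM at 0h and 8.99, 3.98 and 6.88 CPM at 12h (log2 fold change 2.78 ± 0.64, adjusted p = 0.036). Dusp6, which acts on ERK, fell, at 506, 406 and 328 CPM at 0h and 32.9, 129 and 73.9 CPM at 12h (log2 fold change -2.39 ± 0.53, adjusted p = 0.031). Dusp1, which acts on p38 and JNK, was at 13478, 7585 and 11154 CPM at 0h and 15585, 4552 and 21462 CPM at 12h and was not called (adjusted p = 0.77).

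**Figure D3:**
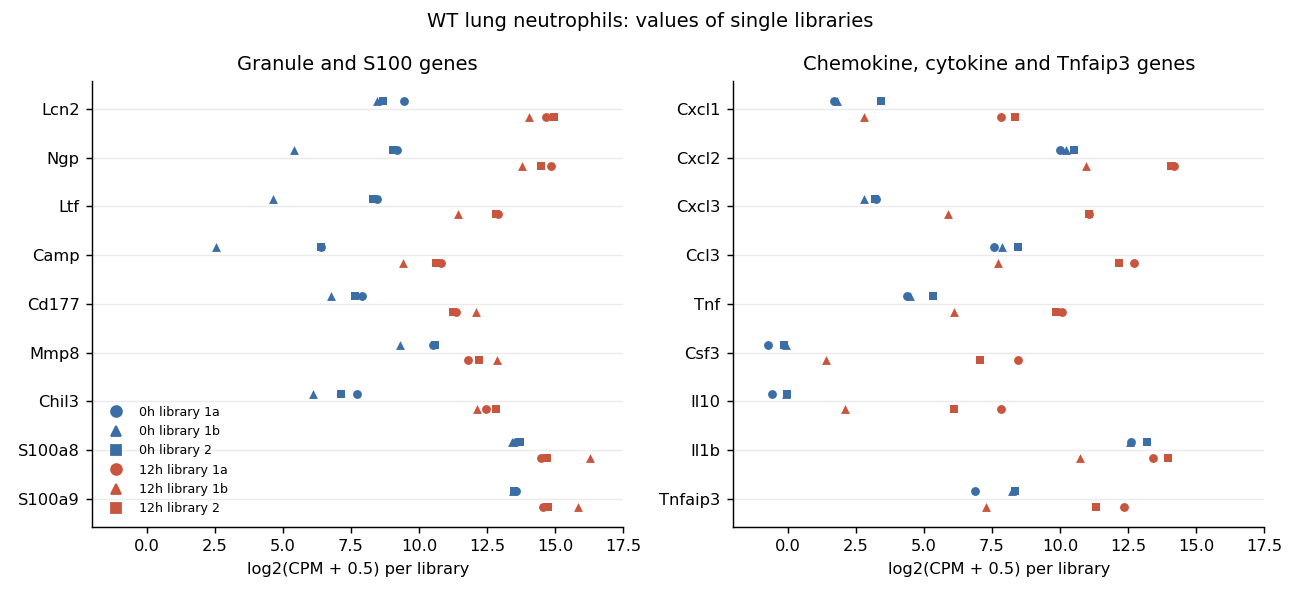
Each row is a gene and the x axis is log2(CPM + 0.5), with blue symbols for the 3 libraries at 0h and red for 12h, circles for library 1a, triangles for 1b and squares for 2. On the left, the red triangle lies with or above the other red symbols for Cd177, Mmp8, S100a8 and S100a9 and near them for Lcn2 and Chil3. On the right, it lies near or below the blue symbols for Ccl3, Il1b and Tnfaip3 and between the groups for Cxcl3, Tnf and Csf3.

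How far 12h library 1b shared each change was measured on genes called without it. Libraries 1a and 2 alone (2 against 2) called 2631 genes higher and 2668 lower, 18.5% and 18.7% of 14258 tested, and the difference between the libraries 1b of 12h and 0h was then read in those genes. Of the 2562 higher genes also tested with all libraries, 1819 were higher at 12h within libraries 1b too (71.0%), with a median log2 difference of 0.55 beside a median log2 fold change of 2.00 in libraries 1a and 2. Of 2633 lower genes 1973 were lower within libraries 1b (74.9%), with a median of -0.56. The lists differed in these counts. All 12 specific granule genes and all 17 acute phase genes called higher in libraries 1a and 2 were higher within libraries 1b. The median log2 differences were 5.28 and 4.94, beside medians of 3.87 and 3.1 in libraries 1a and 2. The low values of Ngp, Ltf and Camp in 0h library 1b enlarge their differences, and Lcn2 stands in both lists. All 12 glycolysis and hypoxia genes and all 11 oxidative phosphorylation genes called higher in libraries 1a and 2 were also higher within libraries 1b, with medians of 1.61 and 1.201. Of 9 glycolysis and hypoxia genes called lower in libraries 1a and 2, 4 were lower within libraries 1b (median 0.25). In the immediate early list 4 of 14 were higher within libraries 1b (28.6%, median -0.26). In MAPK phosphatases 3 of 7 were (42.9%, median -0.17), against 71.0% of all genes. Chemokine ligands, with 6 of 10 (60%), and the NF-kB list, with 11 of 17 (64.7%), lay nearer that share. Their medians were 0.02 and 0.90, beside 0.55 for all genes. Among falls, 19 of 21 interferon-stimulated genes and 13 of 13 B cell markers were lower within libraries 1b as well. Libraries 1b are a single library at each time, so these are values with no test, and the part that their lower depth or their wider spread over genes took in them was not tested.

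**Figure D4:**
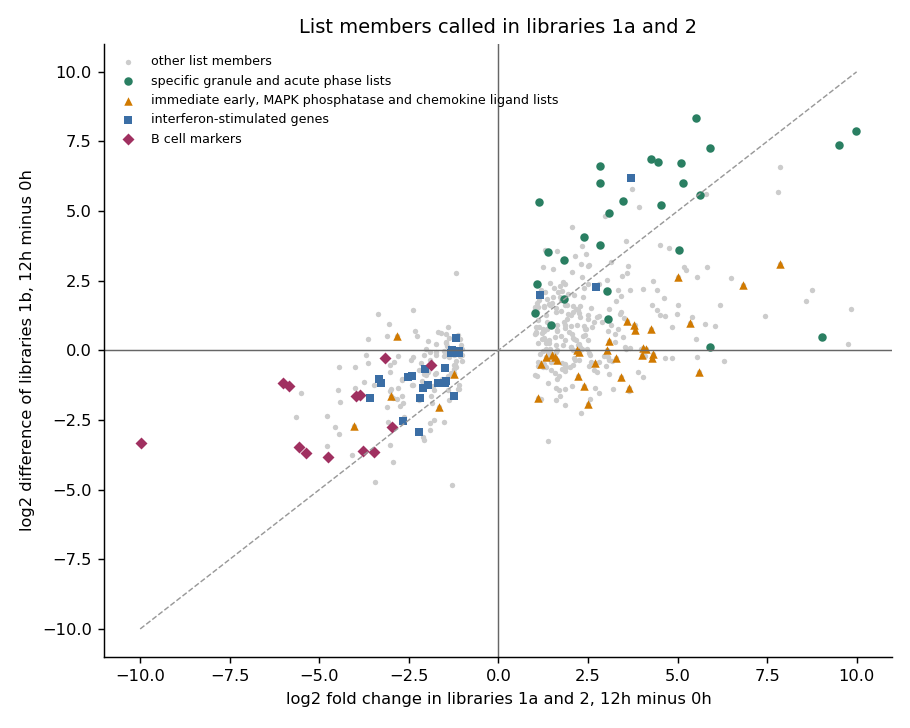
Each point is a list member called in libraries 1a and 2 alone, with its log2 fold change there on the x axis and the log2 difference between the 12h and 0h libraries 1b, from log2(CPM + 0.5), on the y axis. Green circles (specific granule and acute phase lists) lie above 0, most of them above the dashed line of equal change and 2 close to 0 despite a large change in libraries 1a and 2, while orange triangles (immediate early, MAPK phosphatase and chemokine ligand lists) on the right scatter around 0. Blue squares are interferon-stimulated genes and purple diamonds B cell markers, most of which lie below 0 on both axes, and grey points are members of other lists.

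Genes of JAK-STAT signalling moved in both directions. Of 32 tested members 7 were called higher and 3 lower (21.9% and 9.38%, against 5.24% and 3.78% of all genes), and the median log2 fold change was 0.68. Cish, a STAT5-induced inhibitor of cytokine receptors, was at 1.59, 2.17 and 1.47 CPM at 0h and 108, 20.8 and 71.4 CPM at 12h (log2 fold change 5.26 ± 0.64, adjusted p = 0.0055). Its promoter at chr9:107296409-107296708, on the plus strand and written as above, is shown because the letters TTCNNNGAA, to which STAT dimers bind, occur 2 times, from bases 1 and 12 after the start, in capitals.
Cish: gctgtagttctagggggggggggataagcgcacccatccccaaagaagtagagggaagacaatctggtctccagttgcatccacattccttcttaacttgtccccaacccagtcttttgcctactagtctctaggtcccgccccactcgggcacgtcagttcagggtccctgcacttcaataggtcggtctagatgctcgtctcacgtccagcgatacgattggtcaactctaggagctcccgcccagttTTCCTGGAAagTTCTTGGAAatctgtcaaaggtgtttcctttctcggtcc
These letters, which read the same on both strands, were found in 9.55% of all genes in the promoter table and in 3 of 26 members of the list. Pim2, a survival kinase, was at 3.65, 2.62 and 3.28 CPM at 0h and 123, 13.5 and 32.3 CPM at 12h (log2 fold change 4.14 ± 0.79, adjusted p = 0.021). Csf2rb2, the beta chain of the mouse IL-3 receptor, was at 13.7, 7.77 and 14.2 CPM at 0h and 81.4, 109 and 63.5 CPM at 12h (log2 fold change 2.83 ± 0.38, adjusted p = 0.0074). Il10ra, the receptor for IL-10, was at 47.97, 56.9 and 74.6 CPM at 0h and 740.4, 79.3 and 683 CPM at 12h (log2 fold change 3.07 ± 0.76, adjusted p = 0.043). Csf2rb2 was highest in 12h library 1b, and Pim2 and Il10ra were lowest in it. Stat4, which acts downstream of IL-12, fell, at 61.7, 52.8 and 50.6 CPM at 0h and 30.2, 21.8 and 24.4 CPM at 12h (log2 fold change -1.11 ± 0.28, adjusted p = 0.045). Socs3 was at 559, 447 and 469.6 CPM at 0h and 1865, 313 and 1999.8 CPM at 12h and was not called (adjusted p = 0.18).

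More interferon-stimulated genes fell than rose. Of 58 tested 8 were called lower and 2 higher, against 3.78% and 5.24% of all genes, and the median log2 fold change was -0.44. Oasl2, an antiviral oligoadenylate synthetase-like protein, was at 698, 398 and 339 CPM at 0h and 43.98, 120.2 and 45.9 CPM at 12h (log2 fold change -2.77 ± 0.54, adjusted p = 0.023). Ifit3, an antiviral protein of the IFIT family, was at 123, 63.2 and 76.9 CPM at 0h and 17.6, 7.96 and 26.5 CPM at 12h (log2 fold change -2.33 ± 0.49, adjusted p = 0.027). Irgm2, a GTPase that guards vacuoles, was at 171, 77.7 and 157 CPM at 0h and 21.1, 37.9 and 12.96 CPM at 12h (log2 fold change -2.50 ± 0.50, adjusted p = 0.024). Gbp7, a guanylate-binding protein, was at 113, 52.02 and 73.9 CPM at 0h and 20.97, 26.9 and 12.8 CPM at 12h (log2 fold change -1.98 ± 0.41, adjusted p = 0.027). In these 4 genes each 12h library lay below each 0h library. Ifit3b (-2.61) is a close copy of Ifit3, and reads common to both were not counted, which leaves their levels uncertain. Igtp (-1.90) and Trim30d (-1.77) fell too. The 2 that rose were Ifitm6, at 105, 48.3 and 125 CPM at 0h and 1753, 3532 and 1383 CPM at 12h (log2 fold change 4.58 ± 0.62, adjusted p = 0.0078), and Ifitm2, at 647, 505 and 877 CPM at 0h and 5253, 2438 and 5123 CPM at 12h (log2 fold change 2.66 ± 0.50, adjusted p = 0.021), membrane proteins that block viral entry. Slfn4 (1.00) and Slfn2 (0.58) were not called. The promoters of Ifit3 at chr19:34583279-34583578 and Irgm2 at chr11:58214727-58215026, both on the plus strand, are shown with the interferon response letters GAAANNGAA, read on either strand, in capitals.
Ifit3: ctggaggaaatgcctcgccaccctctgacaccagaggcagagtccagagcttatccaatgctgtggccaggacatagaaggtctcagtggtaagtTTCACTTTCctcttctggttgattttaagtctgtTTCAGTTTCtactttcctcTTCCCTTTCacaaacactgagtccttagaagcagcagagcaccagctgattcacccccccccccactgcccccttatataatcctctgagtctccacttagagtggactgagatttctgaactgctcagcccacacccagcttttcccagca
Irgm2: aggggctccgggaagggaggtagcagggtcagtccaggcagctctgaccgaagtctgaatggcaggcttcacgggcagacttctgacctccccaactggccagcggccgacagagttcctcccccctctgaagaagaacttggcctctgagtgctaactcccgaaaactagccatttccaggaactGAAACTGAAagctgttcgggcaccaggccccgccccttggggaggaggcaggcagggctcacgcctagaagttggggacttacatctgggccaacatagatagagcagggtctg
On either strand the letters were found in 30 of 48 list members with a promoter in the table (62.5%), against 9.76% of all genes there, and in 6 of the 7 called-lower members with one.

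Antigen presentation genes gave no call. In the MHC class II list 14 members were tested and none was called by edgeR (unadjusted p under 0.05 in 5, 2 called lower by DESeq2, 4 called lower in libraries 1a and 2 alone), and its median log2 fold change was -0.99. Cd74, the invariant chain, was at 155, 116 and 90.1 CPM at 0h and 169, 14.03 and 244 CPM at 12h, and H2-Ab1 was at 57.4, 37.5 and 17.2 CPM at 0h and 21.7, 4.08 and 21.5 CPM at 12h. Both had their lowest value in 12h library 1b, and the other two 12h libraries lay within or above the 0h range. Of 21 class I and immunoproteasome genes none was called by edgeR (unadjusted p under 0.05 in 8, 3 called lower by DESeq2), and libraries 1a and 2 alone called 3 higher and 4 lower. H2-D1 (-0.05) and B2m (-0.17) had fitted changes near 0.

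Receptors by which neutrophils find their way moved in both directions. Of 22 chemoattractant receptors 3 were called higher and 3 lower (13.6% and 13.6%, against 5.24% and 3.78% of all genes). Ltb4r1, the leukotriene B4 receptor, was at 80.5, 44.4 and 59.1 CPM at 0h and 167, 426 and 342 CPM at 12h (log2 fold change 2.34 ± 0.45, adjusted p = 0.022). S1pr4, a sphingosine 1-phosphate receptor, was at 21.1, 15.5 and 20.4 CPM at 0h and 67.98, 41.2 and 63.3 CPM at 12h (log2 fold change 1.597 ± 0.31, adjusted p = 0.023). Fpr2 is given above. C5ar2, the second receptor for C5a, fell, at 182, 133 and 197 CPM at 0h and 24.8, 24.8 and 38.3 CPM at 12h (log2 fold change -2.54 ± 0.35, adjusted p = 0.0081). Cxcr3 (log2 fold change -4.18 ± 0.53, adjusted p = 0.0066) and Ccr3 (log2 fold change -2.97 ± 0.61, adjusted p = 0.026) fell to low values in every 12h library. Cxcr2, through which Cxcl1, Cxcl2 and Cxcl3 act, was at 4066, 1989.6 and 3743 CPM at 0h and 1103, 1761 and 1299 CPM at 12h and was not called (adjusted p = 0.13). It was lower in all 3 libraries at 12h than in any at 0h, and the 0h library 1b was itself the lowest of its group. C5ar1 (0.93) and Ccr1 (-0.32) were not called.

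The β2 integrins, to which αDβ2 belongs, let neutrophils adhere and migrate. Itgad, the αD chain, was at 1.22, 3.58 and 1.58 CPM at 0h and 0.166, 1.04 and 0.187 CPM at 12h, which are few counts, and was not called (log2 fold change -2.25 ± 0.92, adjusted p = 0.16). Itgal, the αL chain, was at 888, 688 and 879 CPM at 0h and 145, 405 and 324 CPM at 12h (log2 fold change -1.49 ± 0.46, adjusted p = 0.079). Itgam, the αM chain, whose protein was part of the sorting gate, was at 499.9, 282 and 397 CPM at 0h and 767, 714 and 1125 CPM at 12h (log2 fold change 1.14 ± 0.40, adjusted p = 0.11). The values of Itgal were lower and those of Itgam higher in every 12h library, and neither passed the test. Itgax, the αX chain, fell, at 86.99, 79.8 and 98.5 CPM at 0h and 9.22, 8.06 and 36.1 CPM at 12h (log2 fold change -2.31 ± 0.59, adjusted p = 0.047). Itgb2, the shared β chain, was at 1619, 1193 and 1451 CPM at 0h and 2204, 1823 and 2398 CPM at 12h (log2 fold change 0.59 ± 0.38, adjusted p = 0.37). Of all 29 integrin, selectin and related genes tested 3 were called higher and 2 lower (10.3% and 6.9%, against 5.24% and 3.78% of all genes). Itgb2l, a β2-like chain, rose in all libraries, at 25.1, 9.54 and 23.04 CPM at 0h and 342, 555 and 316 CPM at 12h (log2 fold change 4.39 ± 0.52, adjusted p = 0.0051). Itga4, the α4 chain of VLA-4, fell, at 414, 218 and 391 CPM at 0h and 8.72, 60.3 and 29.8 CPM at 12h (log2 fold change -3.37 ± 0.69, adjusted p = 0.026). Cd47, the signal that restrains phagocytes, was at 274, 164 and 300.2 CPM at 0h and 1297, 855 and 859 CPM at 12h (log2 fold change 2.03 ± 0.42, adjusted p = 0.026). Spn, the sialomucin CD43, was at 13.5, 7.77 and 9.31 CPM at 0h and 88.95, 20.9 and 166 CPM at 12h (log2 fold change 3.17 ± 0.69, adjusted p = 0.03).

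Sensors of microbes also moved both ways, with 4 of 31 called higher and 3 lower (12.9% and 9.68%, against 5.24% and 3.78% of all genes). Lbp, which hands lipopolysaccharide to CD14, was at 6.24, 6.16 and 4.16 CPM at 0h and 63.02, 45.03 and 67.05 CPM at 12h (log2 fold change 3.40 ± 0.34, adjusted p = 0.0038). Tlr7, a sensor of single-stranded RNA, was at 12.02, 7.77 and 12.6 CPM at 0h and 102, 36.5 and 109 CPM at 12h (log2 fold change 2.93 ± 0.47, adjusted p = 0.013). Tlr1, a sensor of lipoproteins, was at 5.06, 3.23 and 4.27 CPM at 0h and 29.2, 40.1 and 23.3 CPM at 12h (log2 fold change 2.88 ± 0.36, adjusted p = 0.006). Lbp, Tlr7 and Tlr1 were raised in all 3 libraries. Clec7a, dectin-1, the receptor for fungal β-glucan, fell, at 2138, 1272 and 2508 CPM at 0h and 199, 47.6 and 246 CPM at 12h (log2 fold change -3.59 ± 0.68, adjusted p = 0.021). Nod2, a sensor of muramyl dipeptide, fell, at 94.4, 50.2 and 66.9 CPM at 0h and 20.3, 14.3 and 15.6 CPM at 12h (log2 fold change -2.07 ± 0.34, adjusted p = 0.014), as did Tlr8, at 28.8, 25.03 and 39.01 CPM at 0h and 10.5, 13.7 and 10.3 CPM at 12h (log2 fold change -1.43 ± 0.31, adjusted p = 0.03). Clec4e (1.97) and Trem1 (1.80) were not called, and for Trem1 the 12h library 1b lay within the 0h range. Among inflammasome genes 1 of 18 was called higher and 2 lower (5.56% and 11.1%, against 5.24% and 3.78% of all genes). Pycard, the adaptor ASC, was at 9.05, 4.74 and 5.23 CPM at 0h and 45.7, 148 and 71.1 CPM at 12h (log2 fold change 3.79 ± 0.53, adjusted p = 0.0085). Nlrp12, a regulator of NF-kB signalling, fell, at 499, 329 and 540.3 CPM at 0h and 58.6, 98.9 and 91.3 CPM at 12h (log2 fold change -2.46 ± 0.39, adjusted p = 0.013), and Nlrp1b fell, at 28.7, 13.5 and 18.4 CPM at 0h and 0.276, 2.18 and 0.655 CPM at 12h (log2 fold change -4.36 ± 0.73, adjusted p = 0.015). Nlrp3 was at 166, 131 and 256 CPM at 0h and 664, 37.9 and 674 CPM at 12h and was not called (adjusted p = 0.37), with 12h library 1b below all 0h libraries.

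Paired myeloid receptors held falls only, 4 of 24 tested and 0 rises by edgeR (3.78% and 5.24% of all genes were called lower and higher), with 5 called higher in libraries 1a and 2 alone. Cd300ld was at 1849, 1045 and 1837 CPM at 0h and 183, 408 and 365 CPM at 12h (log2 fold change -2.31 ± 0.48, adjusted p = 0.027). Cd300lb was at 891, 518 and 835 CPM at 0h and 117, 221 and 216 CPM at 12h (log2 fold change -2.02 ± 0.43, adjusted p = 0.028). Sirpb1a was at 141, 67.7 and 135 CPM at 0h and 8.33, 10.9 and 25.1 CPM at 12h (log2 fold change -2.95 ± 0.52, adjusted p = 0.017). Siglecf, a sialic acid receptor of eosinophils and alveolar macrophages, was at 100.5, 49.95 and 71.4 CPM at 0h and 1.55, 17.2 and 2.34 CPM at 12h (log2 fold change -3.43 ± 0.88, adjusted p = 0.049). The Cd300 and Sirpb1 genes belong to clusters of similar copies, and reads shared among copies were not counted. Tyrobp, an adaptor of many of them, was not called (-0.71), nor were Pirb (0.21), Cd33 (0.29) and Cd300lf (1.17). Of 35 Fc receptor, complement receptor and phagocytosis genes 2 were called higher and 0 lower, near the 5.24% of all genes called higher. Fcgr2b, the inhibitory Fc receptor, was at 33.2, 19.98 and 35.6 CPM at 0h and 244, 107 and 159.8 CPM at 12h (log2 fold change 2.53 ± 0.42, adjusted p = 0.015). Rab20, a GTPase of the maturing phagosome, was at 26.9, 23.5 and 35.5 CPM at 0h and 410.5, 53.6 and 324 CPM at 12h (log2 fold change 3.20 ± 0.69, adjusted p = 0.03). Fcer1g (1.53, adjusted p = 0.06), the shared signalling chain, missed the threshold.

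The NADPH oxidase makes the superoxide of the respiratory burst. Of 9 tested genes 2 were called higher and 0 lower (22.2% and 0%, against 5.24% and 3.78% of all genes), with a median log2 fold change of 0.83. Cybb, the catalytic subunit, was at 144, 113 and 185 CPM at 0h and 743, 405 and 486 CPM at 12h (log2 fold change 1.89 ± 0.40, adjusted p = 0.028). Ncf4, which encodes p40phox, was at 419.6, 186 and 268 CPM at 0h and 1182, 797 and 1057 CPM at 12h (log2 fold change 1.80 ± 0.43, adjusted p = 0.041). Both rose in all 3 libraries. Cyba (0.83), Ncf1 (0.81), Rac1 (0.83), Rac2 (0.62), Cyb5r4 (1.06) and Hvcn1 (1.57) were not called.

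Antioxidant, heme and iron genes rose in part. Of 28 tested 7 were called higher and 1 lower (25% and 3.57%, against 5.24% and 3.78% of all genes), with a median of 1.18. Sod2, mitochondrial superoxide dismutase, was at 28.5, 21.8 and 39.97 CPM at 0h and 1974, 178 and 628 CPM at 12h (log2 fold change 4.95 ± 0.89, adjusted p = 0.018). Hmox1, which breaks down heme, was at 85.6, 68.4 and 95.6 CPM at 0h and 1007, 129.6 and 652 CPM at 12h (log2 fold change 2.84 ± 0.69, adjusted p = 0.041). Nqo1, a quinone reductase and NRF2 target, was at 2.63, 3.58 and 0.736 CPM at 0h and 18.9, 29.95 and 112 CPM at 12h (log2 fold change 4.54 ± 0.85, adjusted p = 0.021). Srxn1 (4.07), Txnrd1 (2.80) and Gclm (2.14), enzymes that keep thiols reduced, rose too, Gclm with its highest value in 12h library 1b. Slc40a1, ferroportin, the iron exporter, fell, at 1856, 994 and 1489 CPM at 0h and 110.3, 453 and 146 CPM at 12h (log2 fold change -2.61 ± 0.62, adjusted p = 0.039). Fth1, ferritin heavy chain, was at 4889, 4317 and 5165 CPM at 0h and 39074, 8694 and 27544 CPM at 12h and missed the threshold (adjusted p = 0.055), although all 3 values at 12h were the higher ones. Among metallothionein and zinc transport genes 2 of 11 were called higher, against 5.24% of all genes, both of them metallothioneins, which bind zinc and copper. Mt1 was at 3.61, 3.68 and 3.31 CPM at 0h and 846, 9.29 and 401 CPM at 12h (log2 fold change 6.89 ± 1.38, adjusted p = 0.025). Mt2 was at 0.0338, 0.656 and 0.0368 CPM at 0h and 44.5, 0.853 and 27.5 CPM at 12h (log2 fold change 6.76 ± 1.54, adjusted p = 0.034). Their rise belonged to 12h libraries 1a and 2, and 12h library 1b stayed close to the 0h libraries. None of the 9 zinc transport and related genes tested was called by edgeR.

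In the unfolded protein and integrated stress response list 2 of 25 were called higher and 2 lower, against 5.24% and 3.78% of all genes. Asns, asparagine synthetase, was at 7.56, 7.97 and 12.3 CPM at 0h and 52.04, 25.8 and 26.9 CPM at 12h (log2 fold change 1.91 ± 0.39, adjusted p = 0.026). Ddit4, an inhibitor of mTORC1, was at 0.608, 0.656 and 0.994 CPM at 0h and 18.8, 3.79 and 22.3 CPM at 12h (log2 fold change 4.31 ± 0.70, adjusted p = 0.014). Chac1, which degrades glutathione, fell, at 53.6, 35.8 and 58.5 CPM at 0h and 1.55, 2.84 and 2.62 CPM at 12h (log2 fold change -4.404 ± 0.40, adjusted p = 0.0038), and Eif2ak3, the kinase PERK, fell, at 94.8, 79.3 and 100.4 CPM at 0h and 9.66, 23.9 and 16.4 CPM at 12h (log2 fold change -2.46 ± 0.39, adjusted p = 0.013). Ppp1r15a, which encodes GADD34, was at 316, 283 and 565 CPM at 0h and 1549.9, 58.7 and 3015 CPM at 12h and was not called (adjusted p = 0.27), with 12h library 1b below all 0h libraries. Among 20 heat shock genes edgeR called 1 lower, near the 3.78% of all genes, and 0 higher, while DESeq2 called 1 higher and libraries 1a and 2 alone 4 higher and 2 lower. The factor Hsf1 fell, at 15.3, 16.1 and 24.95 CPM at 0h and 3.59, 4.83 and 7.77 CPM at 12h (log2 fold change -1.80 ± 0.40, adjusted p = 0.033). Hspa8 (-0.11), Hsp90ab1 (-0.18), Dnaja1 (-0.68) and Dnajb1 (0.58) were not called.

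Some genes of glucose use rose, in a list that also holds genes of other metabolism such as Upp1, Acod1 and Hilpda. Of 41 tested glycolysis, glycogen and hypoxia genes 8 were called higher and 2 lower (19.5% and 4.88%, against 5.24% and 3.78% of all genes), with a median of 0.63. Gapdh was at 691, 579.9 and 566 CPM at 0h and 1562, 2861 and 2730.0 CPM at 12h (log2 fold change 1.96 ± 0.42, adjusted p = 0.03). Gpi1, glucose-6-phosphate isomerase, was at 738, 498 and 489 CPM at 0h and 1405, 2126 and 1747 CPM at 12h (log2 fold change 1.61 ± 0.40, adjusted p = 0.045). Hk1, hexokinase 1, was at 48.1, 44.6 and 48.8 CPM at 0h and 226, 137 and 196 CPM at 12h (log2 fold change 1.98 ± 0.32, adjusted p = 0.014). All 3 were higher in every 12h library. Pfkfb3, which drives glycolysis through fructose 2,6-bisphosphate, was at 37.5, 31.7 and 63.01 CPM at 0h and 1059, 148 and 673 CPM at 12h (log2 fold change 3.83 ± 0.73, adjusted p = 0.021). Upp1, uridine phosphorylase, was at 17.8, 8.38 and 14.7 CPM at 0h and 1142, 437 and 747 CPM at 12h (log2 fold change 5.83 ± 0.58, adjusted p = 0.0038). Acod1, which makes itaconate, was at 95.3, 89.004 and 179 CPM at 0h and 3076, 276 and 2491 CPM at 12h (log2 fold change 4.01 ± 0.87, adjusted p = 0.03), and Hilpda, a hypoxia-induced lipid droplet protein, was at 6.89, 19.2 and 18.9 CPM at 0h and 736, 37.6 and 725 CPM at 12h (log2 fold change 5.06 ± 1.06, adjusted p = 0.028). For Pfkfb3, Acod1 and Hilpda the 12h library 1b was the lowest of its group. Slc37a2, a sugar phosphate exchanger, fell, at 61.5, 43.2 and 63.1 CPM at 0h and 3.09, 4.93 and 2.81 CPM at 12h (log2 fold change -3.96 ± 0.37, adjusted p = 0.0038), and Bnip3, a mitophagy receptor, fell, at 177, 78.8 and 157 CPM at 0h and 22.02, 25.3 and 31.6 CPM at 12h (log2 fold change -2.39 ± 0.39, adjusted p = 0.014).

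Of 75 nuclear genes of oxidative phosphorylation tested, 6 were called higher and 0 lower, close to the 5.24% of all genes called higher, with a median log2 fold change of 0.26. Ndufa11, of complex I, was at 2.73, 3.48 and 2.72 CPM at 0h and 33.5, 24.6 and 27.98 CPM at 12h (log2 fold change 3.27 ± 0.32, adjusted p = 0.0038). Uqcrb, of complex III, was at 12.8, 12.7 and 11.1 CPM at 0h and 39.8, 49.5 and 32.1 CPM at 12h (log2 fold change 1.73 ± 0.29, adjusted p = 0.015). Atp5g3, of the ATP synthase, was at 21.9, 22.96 and 18.5 CPM at 0h and 61.9, 74.9 and 57.2 CPM at 12h (log2 fold change 1.61 ± 0.28, adjusted p = 0.016). The 3 libraries of each time were close together in these genes. The others called were Ndufc2 (1.70), Ndufs4 (1.31) and Atp5k (1.56), and Atp5b (-0.23), Atp5f1 (0.25), Sdha (-0.97) and Cox8a (0.32) were not called. None of 79 cytosolic ribosomal protein genes was called by edgeR (unadjusted p under 0.05 in 5, none called by DESeq2), their fitted log2 fold changes had a median of 0.06, and libraries 1a and 2 alone called 1 lower.

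Of 27 tested members of the BCL-2 family and other survival genes 1 was called higher and 2 lower, against 5.24% and 3.78% of all genes. Bcl2l1, which encodes the anti-apoptotic BCL-XL, was at 29.98, 23.6 and 27.6 CPM at 0h and 346, 109 and 262 CPM at 12h (log2 fold change 3.14 ± 0.47, adjusted p = 0.011). Bid, a BH3-only death activator, fell, at 169.7, 153 and 156 CPM at 0h and 32.1, 71.2 and 45.3 CPM at 12h (log2 fold change -1.69 ± 0.37, adjusted p = 0.03), and the other fall was Bnip3. Mcl1, on which neutrophil survival depends, was at 1034, 1525 and 1828 CPM at 0h and 2513, 1884 and 1954 CPM at 12h and was not called (adjusted p = 0.46). Birc3 (2.06) and Fas (1.69) were not called, and only 12h libraries 1a and 2 were above the 0h range in both. Pmaip1 (-0.41) was not called. Among arrest genes and p53 targets 3 of 24 were called higher and 0 lower (12.5% and 0%, against 5.24% and 3.78% of all genes). Cdkn2d, an inhibitor of CDK4 and CDK6, was at 206, 129 and 149.8 CPM at 0h and 864, 363 and 776 CPM at 12h (log2 fold change 2.05 ± 0.45, adjusted p = 0.031). Cdkn1a, the inhibitor p21, was at 8.81, 9.59 and 21.9 CPM at 0h and 478, 12.9 and 990.1 CPM at 12h (log2 fold change 5.20 ± 1.29, adjusted p = 0.044), and Plk2 was at 48.8, 70.03 and 80.8 CPM at 0h and 1982, 57.6 and 1436 CPM at 12h (log2 fold change 4.12 ± 1.07, adjusted p = 0.049). Only Cdkn2d was raised in all 3 libraries, and for Cdkn1a and Plk2 the 12h library 1b lay within the 0h range. Of 33 proliferation genes 1 was called higher and 1 lower, both shares under the 5.24% and 3.78% of all genes. Ccnd3, cyclin D3, rose, at 432, 236 and 387 CPM at 0h and 972, 1075 and 970.2 CPM at 12h (log2 fold change 1.52 ± 0.39, adjusted p = 0.048), and Cenpa, a centromere histone, fell, at 22.9, 19.8 and 24.4 CPM at 0h and 10.7, 11.2 and 9.08 CPM at 12h (log2 fold change -1.12 ± 0.28, adjusted p = 0.047).

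In the TNF superfamily, Tnf rose and 2 of 19 tested members fell (5.26% and 10.53%, against 5.24% and 3.78% of all genes). Tnfsf14, which encodes LIGHT, was at 169.8, 128 and 174 CPM at 0h and 23.2, 61.2 and 32.05 CPM at 12h (log2 fold change -2.02 ± 0.42, adjusted p = 0.027). Tnfsf13b, the B cell survival factor BAFF, was at 32.03, 16.4 and 34.4 CPM at 0h and 7.505, 10.2 and 8.94 CPM at 12h (log2 fold change -1.64 ± 0.37, adjusted p = 0.032). Both were lower in every 12h library. Tnfrsf1b (2.11, adjusted p = 0.052) missed the threshold, and Tnfrsf1a (0.40) was not called.

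Some genes linked to the restraint of immune cells rose, Il10 and Adora2a above among them. Of 21 suppressive and checkpoint genes tested 8 were called higher and 0 lower (38.1% and 0%, against 5.24% and 3.78% of all genes), with a median of 0.75. Nos2, inducible nitric oxide synthase, was at 0.675, 2.02 and 0.626 CPM at 0h and 217, 129 and 85.996 CPM at 12h (log2 fold change 7.05 ± 0.68, adjusted p = 0.0038), and every 12h library lay far above the 0h libraries. Adora2b, another receptor for adenosine, was at 0.338, 0.353 and 0.294 CPM at 0h and 49.9, 4.64 and 10.4 CPM at 12h (log2 fold change 6.02 ± 0.96, adjusted p = 0.013). Havcr2, the checkpoint receptor TIM-3, was at 3.24, 2.88 and 3.35 CPM at 0h and 41.9, 7.49 and 130.4 CPM at 12h (log2 fold change 4.25 ± 0.90, adjusted p = 0.028). Lgals3, galectin 3, was at 336, 164 and 347 CPM at 0h and 1569.7, 1399.6 and 1942 CPM at 12h (log2 fold change 2.54 ± 0.45, adjusted p = 0.017). Lgals3 was raised about equally in the 3 libraries, and Adora2b and Havcr2 were lowest in 12h library 1b. Ptgs2, cyclooxygenase 2, was at 646, 828 and 1662 CPM at 0h and 774, 71.4 and 1238 CPM at 12h and was not called (adjusted p = 0.72), with 12h library 1b many times below each 0h library. Vsir (0.34) and Entpd1 (0.33) were not called.

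In leukotriene and prostaglandin synthesis 3 of 18 tested genes were called higher and 1 lower (16.7% and 5.56%, against 5.24% and 3.78% of all genes). Ptges, the inducible prostaglandin E synthase, was at 1.72, 2.42 and 1.51 CPM at 0h and 48.2, 7.39 and 23.6 CPM at 12h (log2 fold change 3.81 ± 0.67, adjusted p = 0.017). Ptges2 was at 11.9, 9.49 and 14.7 CPM at 0h and 131, 33.3 and 136 CPM at 12h (log2 fold change 3.06 ± 0.55, adjusted p = 0.018). Ptgir, the prostacyclin receptor, was at 3.14, 3.13 and 3.94 CPM at 0h and 41.3, 20.3 and 18.7 CPM at 12h (log2 fold change 2.97 ± 0.41, adjusted p = 0.0084). Each of these was higher in every 12h library than in any at 0h. Ptger2, a receptor for prostaglandin E2, fell, at 72.4, 43.998 and 70.2 CPM at 0h and 14.8, 23.4 and 21.4 CPM at 12h (log2 fold change -1.65 ± 0.33, adjusted p = 0.025). Alox5ap (1.42) and Alox5 (-0.38), which start leukotriene synthesis, were not called.

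Targets of the glucocorticoid receptor gave 5 rises and 0 falls among 18 tested (27.8% and 0%, against 5.24% and 3.78% of all genes), with a median of 1.33. Fkbp5, a chaperone of the receptor, was at 111, 49.1 and 71.1 CPM at 0h and 331, 186 and 636 CPM at 12h (log2 fold change 2.32 ± 0.54, adjusted p = 0.037). Klf9 was at 2.43, 3.83 and 2.54 CPM at 0h and 109, 26.2 and 133 CPM at 12h (log2 fold change 4.94 ± 0.64, adjusted p = 0.0071). The other 3 were Il1r2, Mt2 and Ddit4, given above. Tsc22d3, the steroid-induced protein GILZ, was at 2063, 795 and 1775 CPM at 0h and 1598, 754 and 2102 CPM at 12h and was not called (adjusted p = 0.96). Among clock genes, edgeR called 1 of 17 higher, Bhlhe40, near the 5.24% of all genes, and DESeq2 called 4. In edgeR Per1 (2.43), Per2 (1.61) and Nfil3 (1.86) were not called.

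Transcription factors of granulocyte development gave 4 rises and 0 falls among 21 tested (19.1% and 0%, against 5.24% and 3.78% of all genes). Id2, an inhibitor of helix-loop-helix factors, was at 60.6, 36.9 and 44.2 CPM at 0h and 1394, 512 and 1083 CPM at 12h (log2 fold change 4.398 ± 0.53, adjusted p = 0.0051). Klf5 was at 8.304, 5.15 and 12.5 CPM at 0h and 58.9, 58.7 and 37.01 CPM at 12h (log2 fold change 2.57 ± 0.41, adjusted p = 0.013). Cebpa, which starts the granulocyte program, was at 1.65, 3.53 and 2.83 CPM at 0h and 15.2, 6.73 and 13.2 CPM at 12h (log2 fold change 2.14 ± 0.47, adjusted p = 0.032), and Id1 was at 21.8, 12.6 and 18.3 CPM at 0h and 58.2, 45.8 and 80.8 CPM at 12h (log2 fold change 1.81 ± 0.35, adjusted p = 0.022). All 4 were higher in every 12h library. Cebpb, the factor of emergency granulopoiesis, was at 61.8, 856 and 394 CPM at 0h and 2914, 1607 and 3749 CPM at 12h and was not called (adjusted p = 0.091), the 0h libraries themselves spreading widely. Spi1 (0.97) and Klf2 (1.09) were not called.

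Of 37 actin and motility genes 3 were called higher and 0 lower, close to the 5.24% of all genes called higher. Capg, which caps actin filaments, was at 126, 76.6 and 109 CPM at 0h and 470.4, 628 and 910.2 CPM at 12h (log2 fold change 2.69 ± 0.42, adjusted p = 0.013). Vasp, which extends them, was at 249.5, 202 and 276 CPM at 0h and 1085, 624 and 901 CPM at 12h (log2 fold change 1.84 ± 0.39, adjusted p = 0.027). Tmsb10 was at 4.32, 6.41 and 5.15 CPM at 0h and 14.2, 36.7 and 12.4 CPM at 12h (log2 fold change 1.99 ± 0.48, adjusted p = 0.041). Actb (0.79), Tmsb4x (-0.70), Lcp1 (-0.07) and Msn (0.38) were not called. Lysosomal genes gave 5 rises and 2 falls among 44 (11.4% and 4.54%, against 5.24% and 3.78% of all genes). Ctsb, cathepsin B, was at 292, 169 and 289.6 CPM at 0h and 1775, 799 and 1367 CPM at 12h (log2 fold change 2.39 ± 0.47, adjusted p = 0.023). Atp6v0c (2.26) and Atp6v1h (1.69), subunits of the proton pump, rose too, as did Ctsc. Ctsa, cathepsin A, fell, at 560.3, 316 and 548 CPM at 0h and 93.7, 84.8 and 87.5 CPM at 12h (log2 fold change -2.42 ± 0.37, adjusted p = 0.012), and Mcoln1, a lysosomal calcium channel, fell, at 73.6, 49.7 and 78.2 CPM at 0h and 32.7, 18.3 and 26.2 CPM at 12h (log2 fold change -1.38 ± 0.34, adjusted p = 0.041). Sqstm1, the autophagy receptor p62, was at 278, 312 and 301 CPM at 0h and 3832, 322 and 3247 CPM at 12h (adjusted p = 0.055) and was not called, with 12h library 1b near the 0h values.

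Markers of other cells were measured because the gate could let some of them through. B cell genes were lower at 12h, with 7 of 18 tested markers called lower and 0 higher, against 3.78% and 5.24% of all genes, and a median of -2.89. The summed CPM of the 20 markers was 816, 509 and 602 at 0h and 31.2, 65.9 and 93.997 at 12h. Ighm, the μ heavy chain, was at 639.6, 350.3 and 495 CPM at 0h and 22.5, 27.96 and 62.6 CPM at 12h (log2 fold change -3.71 ± 0.53, adjusted p = 0.0089). Ighd, the δ heavy chain, was at 21.6, 16.1 and 10.5 CPM at 0h and 0.497, 0.664 and 0.702 CPM at 12h (log2 fold change -4.69 ± 0.46, adjusted p = 0.0038). In bulk samples fewer B cells and less of these transcripts per cell cannot be told apart. Iglc2 and Iglc3, similar light chain genes for which shared reads were not counted, had 1 and 4 counts over the 3 libraries at 12h. The part of B cells in the falls of other genes was not tested.

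The monocyte and macrophage list moved in both directions, 3 of 19 called higher and 5 lower (15.8% and 26.3%, against 5.24% and 3.78% of all genes). Csf1r, the receptor for CSF-1, fell, at 565, 434 and 653 CPM at 0h and 182, 179 and 174 CPM at 12h (log2 fold change -1.63 ± 0.34, adjusted p = 0.028). Apoe, apolipoprotein E, fell, at 213, 107 and 218 CPM at 0h and 16.4, 9.76 and 38.6 CPM at 12h (log2 fold change -3.05 ± 0.57, adjusted p = 0.021), and Adgre1, F4/80, fell, at 109.8, 80.7 and 198 CPM at 0h and 49.001, 44.6 and 28.03 CPM at 12h (log2 fold change -1.68 ± 0.42, adjusted p = 0.046). Siglecf and Itgax, both above, are markers of alveolar macrophages. Ly6c2 rose, at 89.3, 67.8 and 68.8 CPM at 0h and 259, 809 and 245 CPM at 12h (log2 fold change 2.54 ± 0.54, adjusted p = 0.029), and F13a1 rose, at 0.5401, 3.08 and 0.331 CPM at 0h and 15.7, 45.5 and 9.12 CPM at 12h (log2 fold change 4.18 ± 0.97, adjusted p = 0.036). The list's sum was 1774, 1534 and 2244 CPM at 0h and 10919, 5997 and 13268 CPM at 12h, and at 12h Chil3, which immature neutrophils also express, and Nr4a1, an early-response gene at 204, 479.6 and 562 CPM at 0h and 4551, 186 and 5388 CPM at 12h, made up most of it. Their part in the results was not tested.

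The T and NK cell markers summed to 23.4, 34.7 and 25.7 CPM at 0h and 16.4, 18.5 and 19.8 CPM at 12h, and 0 of 14 tested were called by edgeR (unadjusted p under 0.05 in 2, 1 called lower by DESeq2). For eosinophils, basophils and mast cells the sums were 122, 87.7 and 84.3 CPM and 36.3, 62.8 and 18.9 CPM. Of 6 tested 2, Siglecf and Ccr3, were called lower and 0 higher (33.3% and 0%, against 3.78% and 5.24% of all genes). Platelet markers summed to 122, 109 and 98.5 CPM and 175, 173 and 157 CPM. Of 18 tested 1 was called, a fall of Clec1b (log2 fold change -2.53 ± 0.60, adjusted p = 0.039), which is 5.56% and near the 3.78% of all genes called lower. Lung endothelium and stroma summed to 253, 519.7 and 228 CPM and 187, 244 and 295 CPM, with no call by edgeR among 26 tested (unadjusted p under 0.05 in 1, none by DESeq2). Lung epithelium markers summed to 277, 217 and 141 CPM at 0h and 737, 800.4 and 1260.5 CPM at 12h. Of 20 tested 2 were called higher and 0 lower (10% and 0%, against 5.24% and 3.78% of all genes), namely Hopx (log2 fold change 1.74 ± 0.39, adjusted p = 0.032) and the protease gene Napsa. Napsa was at 123, 61.3 and 96.7 CPM at 0h and 639, 319 and 957 CPM at 12h (log2 fold change 2.77 ± 0.52, adjusted p = 0.02). Sftpc, the defining surfactant protein of alveolar type 2 cells, overlapped between the groups, at 55.1, 33.1 and 12.6 CPM at 0h and 6.57, 12.9 and 17.97 CPM at 12h (adjusted p = 0.15), and Scgb1a1, of club cells, was at 33.6, 38.9 and 6.29 CPM at 0h and 5.57, 349 and 186 CPM at 12h. Erythroid markers, mostly hemoglobin genes of near-identical pairs, were highest in libraries 1b, with sums of 164, 959 and 87.7 CPM at 0h and 151, 1540.3 and 584 CPM at 12h, and none of 9 tested was called by edgeR (unadjusted p under 0.05 in 0, none by DESeq2). No marker of these lists was without counts in all 6 libraries, and the part of these cells or of their RNA in the results was not tested.

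**Figure D5:**
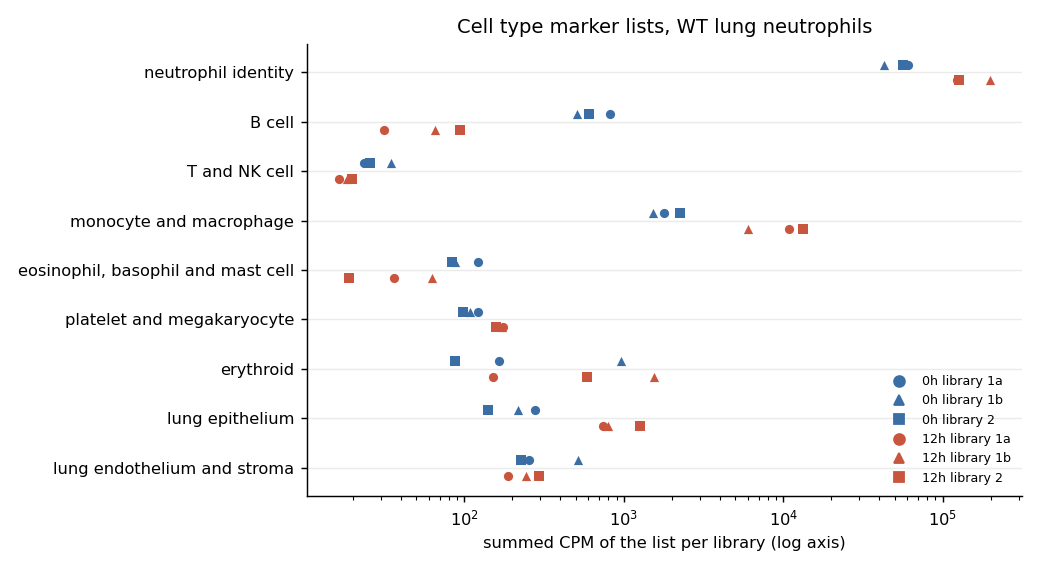
Each row is a cell type marker list and the x axis, on a log scale, is its summed CPM in each library. Blue symbols are 0h and red symbols 12h, with circles for library 1a, triangles for 1b and squares for 2. The neutrophil sums lie far to the right in all 6 libraries, B cell markers are lower at 12h, and erythroid markers are highest in the triangles of each time.

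Whether the lung response differed from that of blood neutrophils of WT mice, which have their own 3 libraries at each time, was tested as an interaction. No gene of 23497 was called by edgeR (0% of genes tested), with an unadjusted p under 0.05 for 1290, and DESeq2 called 95. The median interaction term of all genes was 0.56 log2 units, so that single terms are read against that shift. Without lung 12h library 1b the interaction called 176 genes, and with libraries 1a and 2 alone in both tissues 1167. All 12 of the largest rises in lung and all 12 of the largest falls were fitted in the same direction in blood, where 9 and 7 of them were called, against 3.23% and 2.8% of genes called higher and lower in blood. In this joint fit Saa3 changed by 7.58 ± 1.16 log2 units (SE) in blood and 9.72 in lung, and Ikbke by 7.01 ± 1.08 in blood and 7.63 in lung. Lipg changed by 8.78 ± 0.66 in blood and 7.72 in lung, and Ggt1 by 6.98 ± 0.77 and 7.10. Among the falls, Cd101 changed by -6.96 ± 0.63 in blood and -5.90 in lung. Other named genes, chosen after their values were seen, had fitted values further apart, and none passed the test: Il1b changed by -2.96 ± 0.83 in blood and 0.30 in lung, Nlrp3 by -2.80 ± 0.91 and 1.21, and Fosb by -5.55 ± 0.56 and -1.87, with unadjusted p values of the interaction of 0.014, 0.0078 and 0.00017 and adjusted p values of 0.88, 0.88 and 0.88. For the B cell gene Ly6d the values were -0.82 ± 1.24 in blood and -4.96 in lung, and the difference did not pass the test of the interaction (adjusted p = 0.88).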

How the data were processed

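RNA had been taken from sorted lung neutrophils, amplified as full-length cDNA (SMART-Seq v4) and made into Nextera XT libraries. According to the methods and the submitters' processing notes, the authors trimmed reads with Trimmomatic 0.36, mapped them with STAR 2.5.2b to GRCm38 and counted unique reads in exons, which leaves out reads shared by near-identical copies. The deposited values are whole counts of 49315 genes per file, without normalization. The strand setting was not given in the sources used here, so overlapping genes on opposite strands cannot be separated. Symbols were found for 48970 identifiers, and positions equal those of GENCODE M21 for 44823.

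The 6 files were grouped by genotype, tissue and treatment in the labels, each file as a library. Tests used edgeR 4.0.16 in R 4.3.3 (TMM, filterByExpr, two-sided quasi-likelihood F test, Benjamini-Hochberg adjustment over all genes tested), with DESeq2 1.42.0 and limma 3.58.1 as alternatives. Tables used Python 3.11.15, pandas 2.3.3, numpy 2.4.6 and scipy 1.17.1, and figures matplotlib 3.10.9. The 48 lists hold 1177 genes, of which 11 names had no match, and a gene can stand in several lists. Members and lists were chosen with earlier results of these data known, from general knowledge. Named are, per list, the 4 most abundant members and the called ones (up to 6 per direction), lists of at most 12 genes whole, and over all genes the 12 largest rises and falls among called protein-coding genes whose groups do not overlap and that have at least 10 counts in each library of the higher group. The promoters printed and the reading of libraries 1b in genes called without them were chosen after the values were seen. Differences of libraries 1b used log2(CPM + 0.5). Total counts from 10628463 to 28488406 limit genes of few CPM, and PCR copies make counting intervals too narrow. The aD KO libraries were not used here. A few genes of the lists and of the largest falls are not reported here.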

Additional observations from a re-analysis of the deposited data

How the results depend on the processing

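The 1340 called genes stayed within 1.5 times that count with the adjusted p alone, without a filter, with a stricter filter (10 or more counts in each library) and with RLE factors. Other alternatives moved it: DESeq2 gave 2384, limma voom with quality weights 5210, all 8 groups in the fit 447, the files of sample 1 summed 2337 and libraries 1a and 2 alone 5299. Leaving out each library gave 0 to 3941. With the library number as a replicate block 893 genes were called. Deviations from the group means correlated by 0.0707, 0.422 and 0.351 for numbers 1a, 1b and 2, and 12h libraries 1b and 2 correlated best with their own number while 12h library 1a did not, so the numbers were not taken to pair the libraries, although both libraries 1b resemble each other. Without 12h library 1b the median log2 fold change of all genes moved to -0.24, and without the filter to -0.13. The cause of these shifts was not tested. For the interaction with blood, with 0 genes called, DESeq2 gave 95, no filter 4 and libraries 1a and 2 alone 1167, and leaving out each library gave 0 to 176, while the sum of files and the replicate block gave 0. Of 184 named genes that were called, 184 kept the call in libraries 1a and 2 alone, 180 under DESeq2, 141 with the replicate block and 60 with all 8 groups, while 98 kept it without 0h library 1b, 10 without 12h library 2 and 0 without 0h library 1a, 0h library 2 or 12h library 1a. None of them changed sign where it was tested, which the filter of 10 counts allowed for 157. The lower depth of libraries 1b limits genes of few counts most.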
